A study of Mus musculus with 4 samples.

Results

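The peaks described here are those of a STAT3 ChIP-seq experiment that lie inside, or within 500 kb of, the mouse genes Zeb2, Zeb2os and Zeb1. A peak was taken when its centre fell in that window in the RefSeq annotation of GRCm38. In the SCI list 29 of 36249 peaks met this rule, which is 0.0800% of the list, and in the sham list 77 of 88765 did, which is 0.0867%. Zeb2 and Zeb2os lie on chromosome 2 and Zeb1 on chromosome 18, and Zeb2os lies within the span of Zeb2, so both share 1 window. STAT3 was precipitated from spinal cord cells of C57BL/6 mice. SCI mice had a moderate contusion of 60 kdyn at thoracic level 9 and were kept for 7 days, and sham mice had the laminectomy at that level alone, also for 7 days. Each condition had 1 STAT3 library from the pooled injury-site tissue of 3 mice and 1 input library that was not analysed here. The cells were digested and strained with no described sort for a cell type, and a peak list holds no measure of which cells were present. The title of the study puts Zeb2os forward as a target in astrogliosis, the reaction of astrocytes to injury, and the labels do not call these cells purified astrocytes. With 1 library in each condition no difference between SCI and sham has a replicate check, and no test between them was run.

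Each peak carries a value that was taken as its score, a measure of strength, and was 5 or more in both lists. The lists have no column headers, so the score was identified by its place in the layout alone. The sources used here do not say whether both lists share 1 scale, so a peak is placed by its rank within its own list. A peak in the top 10% has a rank that 10% of the peaks of its list reach. Peaks of equal score all take the best rank of their tie. The 2785 SCI and 5451 sham peaks at the lowest score of 5 therefore stand in the top 92.3% and the top 93.9%. No peak of their list is lower. The sham list had 2.45 peaks for each SCI peak, and the sequencing depth behind either list is unknown.

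Zeb2 and Zeb1 encode zinc-finger and homeodomain repressors that bind E-box sequences in DNA and switch off epithelial genes such as the gene of E-cadherin. They drive the epithelial to mesenchymal transition, and Zeb2 is also needed for the neural crest and for the maturation of myelinating glia. Zeb2os is a long noncoding RNA gene at the 5′ part of Zeb2, and a natural antisense transcript of the human ZEB2 gene is known to alter splicing in its 5′ untranslated region. STAT3 is a transcription factor downstream of cytokines of the interleukin-6 family and binds DNA as a dimer. Its usual site is TTCNNNGAA.

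The SCI and sham lists had 1 position in common inside Zeb2, and it lay between annotated start sites of the gene. The RefSeq promoter table (GRCm38.p6) gives Zeb2 4 start sites on the minus strand, at 45117442, 45113279, 45113253 and 45110277 of chromosome 2. The SCI peak at chr2:45115205-45115368 had its centre 2156 bp downstream of the outermost start and 2007 bp upstream of the second one. The sham peak at chr2:45115187-45115376 was centred 2161 bp downstream of the outermost start and 2002 bp upstream of the second. The second and the third start lie inside Zeb2os. No SCI or sham peak overlapped any of the 4 promoter windows, which run from 250 bases before to 50 bases after a start. The windows of the starts at 45113279 and 45113253 largely overlap, so the 4 windows are not separate cases. How often a promoter window overlaps a peak was not computed over all such windows, so this absence has no background. The windows of the outermost and the second start, which flank this shared peak on either side, are printed 5′ to 3′ on the minus strand at chr2:45117393-45117692 and chr2:45113230-45113529. Capitals mark TTCNNNGAA, which reads the same on both strands. The sequence of the peak itself was not used here.
Zeb2 outermost start: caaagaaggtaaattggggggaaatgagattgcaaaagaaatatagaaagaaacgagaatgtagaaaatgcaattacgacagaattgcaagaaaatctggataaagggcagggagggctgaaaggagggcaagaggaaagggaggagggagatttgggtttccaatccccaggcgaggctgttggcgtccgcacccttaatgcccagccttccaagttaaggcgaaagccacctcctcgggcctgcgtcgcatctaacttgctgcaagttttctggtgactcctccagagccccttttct
Zeb2 second start: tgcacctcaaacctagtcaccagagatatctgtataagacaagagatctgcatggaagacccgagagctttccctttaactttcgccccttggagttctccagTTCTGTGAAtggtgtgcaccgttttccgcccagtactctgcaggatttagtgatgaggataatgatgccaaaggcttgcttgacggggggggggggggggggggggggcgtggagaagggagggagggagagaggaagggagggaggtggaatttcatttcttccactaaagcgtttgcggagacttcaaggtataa

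The match TTCTGTGAA begins 147 bases before the second start and is also in the overlapping window of the third. The outermost and the fourth window hold none. Of the 32851 promoter windows of this length in the table, 8.30% hold TTCNNNGAA. The E-box CACCTG, a form of the sites that ZEB proteins bind, is in none of the 4 Zeb2 windows on either strand, and 20.2% of all windows hold it. Other forms were not searched. The shorter run CACCT is in both printed windows, and its share over all windows was not computed. A match is a description of letters and not a measured site.

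Both loci were ordinary in how many peaks they held, in SCI and in sham. The window of Zeb2 held 15 SCI peaks, or 13.2 per Mb (95% Poisson interval 7.40 to 21.8), and 37 sham peaks, or 32.6 per Mb (23.0 to 45.0). The window of Zeb1 held 14 SCI peaks, or 11.8 per Mb (6.46 to 19.8), and 40 sham peaks, or 33.8 per Mb (24.1 to 46.0). These intervals cover counting error only. Over all 21887 protein-coding genes the median density in the same kind of window was 15.9 peaks per Mb in SCI and 39.3 in sham. For SCI 32.3% of these genes had a lower density than Zeb2 and 23.5% a lower one than Zeb1, and for sham the values were 29.9% and 33.6%. The 500 kb window around Zeb2os alone held 14 SCI and 35 sham peaks.

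**Figure D1:**
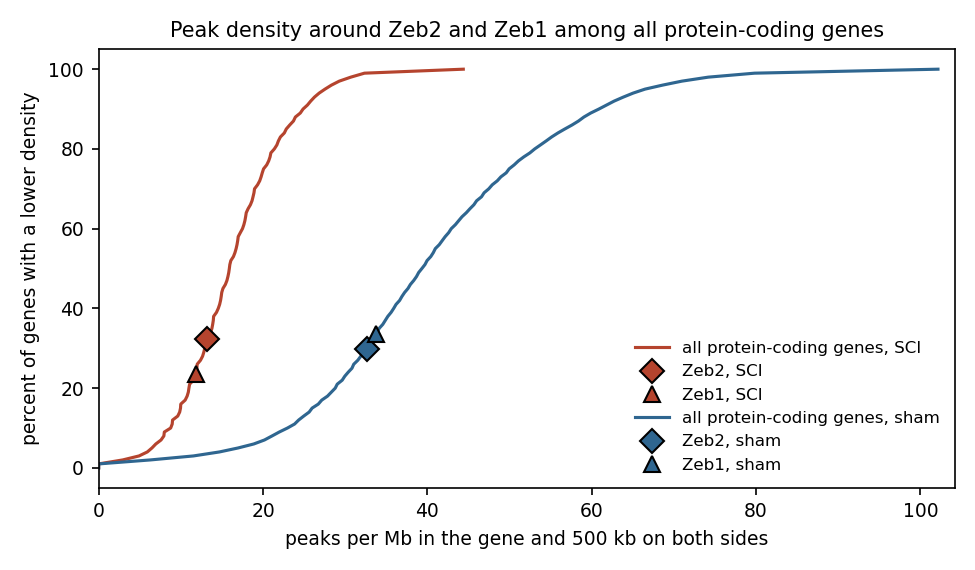
Peaks per Mb in the gene and 500 kb on both sides (x axis) against the percent of protein-coding genes with a lower density (y axis). Lines show all 21887 protein-coding genes for SCI and sham, diamonds Zeb2 and triangles Zeb1, and all 4 symbols lie in the lower part of their curve, between 23.5 and 33.6%.

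Most peaks of both lists were of middle or low rank. The median SCI peak near Zeb2 stood in the top 58.5% of its list and the median sham peak in the top 54.4%. Near Zeb1 these values were 42.7% for SCI and 42.2% for sham. No SCI peak near Zeb2 belonged to the highest 1% of the list, and 2 sham peaks did. Near Zeb1 1 SCI peak and 1 sham peak did. Of all protein-coding genes, 15.8% had an SCI peak of the highest 1% within 500 kb and 35.1% had such a sham peak. The −log10 value of the list reached its maximum of 4.36 in 4 of the 15 SCI peaks near Zeb2 and its maximum of 4.05 in 10 of the 37 sham peaks. It did so in 5 of 14 SCI and 13 of 40 sham peaks near Zeb1. Over the whole lists 31.4% of the SCI peaks and 31.5% of the sham peaks had the maximum.

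**Figure D2:**
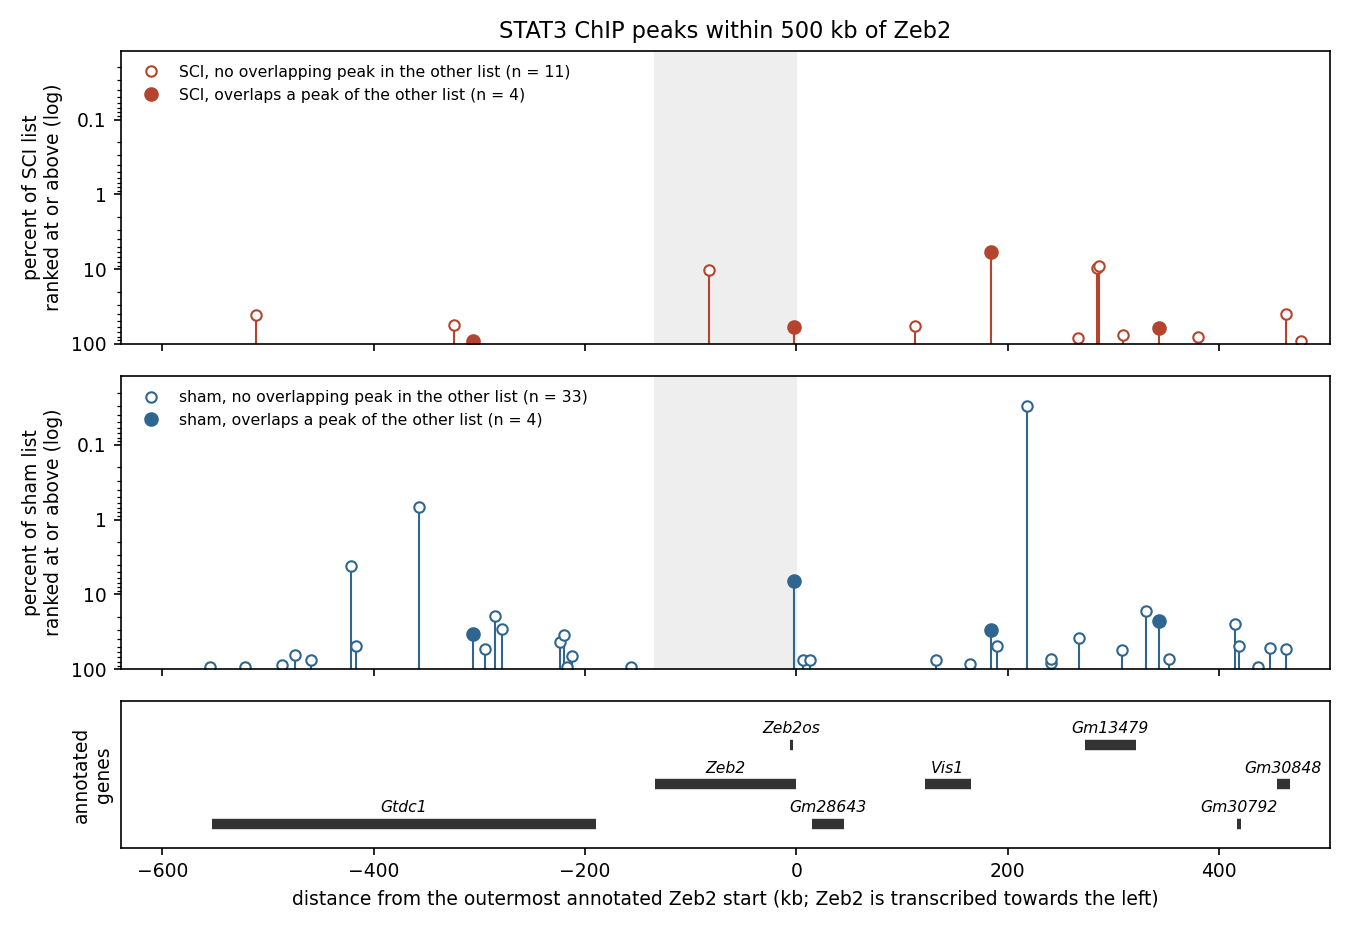
Every peak within 500 kb of Zeb2 by its distance in kb from the outermost annotated start of the gene (x axis) and the percent of its own list that ranks at or above it (y axis, log scale, highest peaks at the top), with SCI above sham and annotated genes below. Filled symbols are peaks that overlap a peak of the other list (4 in each), open symbols are the other 11 SCI and 33 sham peaks, and the grey band is Zeb2. Peaks of equal score are drawn at the best rank of their tie.

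Inside Zeb2 (gene ID 24136, chr2:44983512-45117442, 133.9 kb) there were 2 SCI peaks and 1 sham peak. The position in common had a score of 6.74 in SCI, in the top 60.2%, and 22.4 in sham, in the top 6.62%. In SCI it was the weaker of the pair of peaks in the gene. The other SCI peak, at chr2:45035127-45035290, scored 14.4 in the top 10.2%, and the nearest sham peak lay 74.3 kb away. Over the whole lists the median distance from an unshared SCI peak to the nearest sham peak was 9.76 kb. From an unshared sham peak to the nearest SCI peak it was 22.7 kb. Of the 21887 protein-coding genes 43.9% had an SCI peak inside or within 5 kb, 66.7% had a sham peak there, and 16.5% had an SCI peak there that was shared with sham. Among the 1439 protein-coding genes of 100 to 200 kb, the median number of peaks inside was 2 in SCI and 5 in sham, and 7.51% of these genes had no more than 1 sham peak. The annotation used here gives no exons, so exon and intron cannot be told apart for these peaks.

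Zeb2os (gene ID 433424, chr2:45111138-45114087, 2.95 kb), the long noncoding RNA gene, held no peak in SCI and none in sham. The centre of the shared peak lay 1199 bp outside it in SCI and 1194 bp outside it in sham. No other peak of either list lay within 5 kb of Zeb2os, and none lay within 5 kb outside Zeb2. Mir5129, a microRNA gene inside Zeb2, held no peak in either list. Zeb2os and Mir5129 are much shorter than the median gap between neighbouring peaks, 45.3 kb in SCI and 18.1 kb in sham. The share of genes this short that hold no peak was not computed, so these absences have no background.

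Upstream of Zeb2, on the side of higher coordinates, the annotation has no protein-coding gene within 500 kb, and SCI had most of its peaks there. This side held 10 SCI and 19 sham peaks, so SCI peaks made up 34.5% (95% exact binomial interval 17.9 to 54.3%) of all peaks on it. Over the whole lists the share of SCI was 29.0%, inside that interval. In the first 100 kb upstream SCI had no peak. Sham had 2 there, at 6.36 and 13.2 kb, both with a score of 6.08 in the top 74.6%. From 100 to 250 kb there were 2 SCI and 7 sham peaks, and from 250 to 500 kb 8 SCI and 10 sham peaks.

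The highest-ranked peaks of both lists near Zeb2 lay in this upstream desert, at different places. The highest SCI peak, at chr2:45301521-45301684, was 184 kb upstream with a score of 17.2, in the top 5.99%. A sham peak at chr2:45301512-45301701 lay over it with a score of 11.02, in the top 29.9%. The next SCI peaks, at chr2:45404097-45404260 and chr2:45402026-45402189, were 287 and 285 kb upstream, inside the long noncoding RNA gene Gm13479. They scored 14.9 in the top 9.08% and 14.6 in the top 9.79%. Their nearest sham peaks were 19.2 and 17.1 kb away. The remaining SCI peak inside Gm13479 scored 5.88 in the top 75.4%, and its nearest sham peak was 1.20 kb away and also inside that gene.

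The highest sham peak, at chr2:45335470-45335594, was 218 kb upstream, scored 76.5 and had rank 27 of the whole sham list, the top 0.0304%. No annotated gene covered it, and the nearest SCI peak was 33.9 kb away. This peak was 125 bp wide, against the usual 190 bp of the sham list. In that list 0.995% of all peaks were narrower than usual, and among the highest 1% of its peaks 56.6% were. Whether narrow peaks differ from others in origin was not tested. Another sham peak on this side, at chr2:45448325-45448514, was 331 kb upstream with a score of 15.1, in the top 16.7%.

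Some upstream SCI and sham peaks lay close together without overlapping. The SCI peak at chr2:45581077-45581240, 464 kb upstream in the long noncoding RNA gene Gm30848, scored 8.21 in the top 39.4%. A sham peak in the top 54.4% ended at 45581076, so the pair touched with 0 bp between them and 177 bp between their centres. The SCI peak 267 kb upstream, in the top 82.5%, lay 300 bp from a sham peak in the top 38.1%. Counting centres within 500 bp as shared makes 6 of the 15 SCI peaks near Zeb2 shared in place of 4. Among all unshared SCI peaks 2.84% lay within 500 bp of a sham peak by their centres, and 2 of the 11 unshared ones near Zeb2 did. The remaining SCI peaks on this side, at 112, 380 and 478 kb, stood in the top 58.5, 82.0 and 92.3%.

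Downstream of Zeb2, on the side of lower coordinates, the share of SCI peaks was within counting error of that of the whole lists. This side held 3 SCI and 17 sham peaks, so that SCI made up 15.0% (3.21 to 37.9%), an interval that includes the 29.0% of the whole lists. All 3 SCI peaks and 15 of the sham peaks lay inside Gtdc1, a gene for a glycosyltransferase-like protein and the only protein-coding neighbour of Zeb2 within 500 kb (gene ID 227835, chr2:44564412-44927717). The SCI peaks stood in the top 41.7, 55.6 and 91.9%. The highest sham peaks in Gtdc1, at chr2:44760592-44760781 and chr2:44696097-44696286, scored 42.9 in the top 0.682% and 26.2 in the top 4.23%. Their nearest SCI peaks were 32.7 and 89.9 kb away. In the first 100 kb downstream SCI had no peak and sham had 5.

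**Figure D3:**
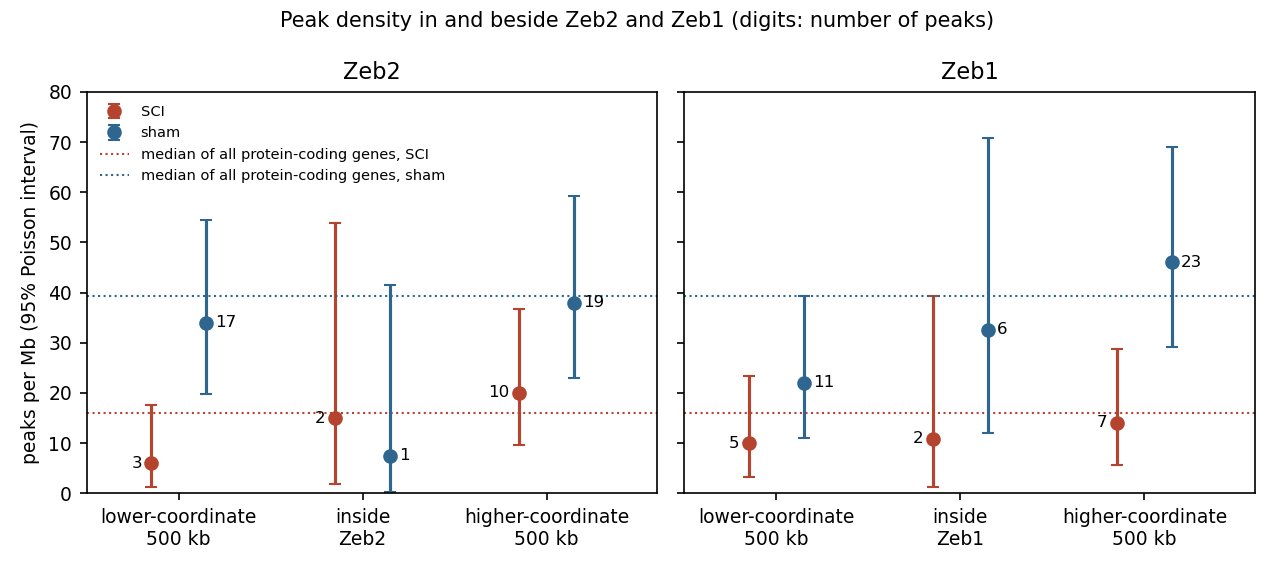
Peaks per Mb (y axis) in the 500 kb on the lower-coordinate side, inside the gene and in the 500 kb on the higher-coordinate side of Zeb2 (left) and Zeb1 (right), SCI left of sham in each pair, with 95% Poisson intervals and the number of peaks in digits. Dotted lines mark the medians of all protein-coding genes, 15.9 per Mb in SCI and 39.3 in sham, and each of the 12 intervals includes the median of its own list.

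Near Zeb2, 4 of 15 SCI peaks overlapped a sham peak by at least 1 bp, 26.7% (7.79 to 55.1%), and 4 of 37 sham peaks overlapped an SCI peak, 10.8% (3.03 to 25.4%). Over the whole lists these shares were 21.6% of SCI and 8.84% of sham peaks, so both were within counting error of the background. Beside the position inside Zeb2 and the one 184 kb upstream, the shared positions lay in Gtdc1, 172 kb downstream, and 344 kb upstream. In Gtdc1 the SCI peak at chr2:44811773-44811936 scored 5.05 in the top 91.9%, and the sham peak at chr2:44811755-44811944 scored 10.3 in the top 33.9%. At 344 kb the SCI peak at chr2:45461058-45461221 scored 6.64 in the top 61.8%, and the sham peak at chr2:45461093-45461282 scored 12.9 in the top 22.7%. By percent rank the one 184 kb upstream stood higher in SCI and the other 3 stood higher in sham. Over all 7849 overlapping pairs of the lists 45.4% stood higher in SCI and 54.6% in sham, and ranks from lists of different length do not show a change of a peak.

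The shared pairs near Zeb2 coincided closely. At 3 of the 4 positions the SCI peak lay wholly inside the sham peak, with centres 4 or 5 bp apart, and at the fourth, 344 kb upstream, the centres were 48 bp apart. Over all 7845 shared SCI peaks the median distance of centres was 52 bp, and 7.07% were within 5 bp. All 4 pairs near Zeb2 covered at least 50% of both peaks, as 67.7% of the shared SCI peaks of the whole list did.

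**Figure D4:**
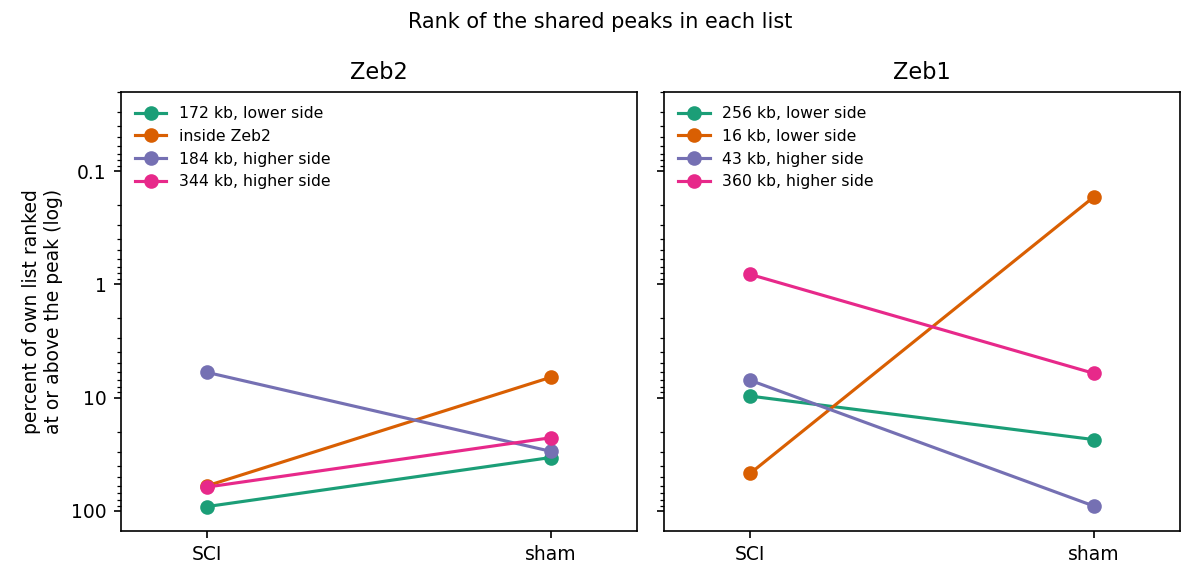
Rank of the 4 shared peaks near Zeb2 (left) and of the 4 near Zeb1 (right), given as the percent of the own list that ranks at or above the peak (y axis, log scale, highest at the top), with SCI on the left and sham on the right of each panel and a line for each position. Of the 4 positions, 1 near Zeb2 and 3 near Zeb1 stand higher in SCI, beside 45.4% of all overlapping pairs, and since the lists differ in length the lines do not show a change.

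**Figure D5:**
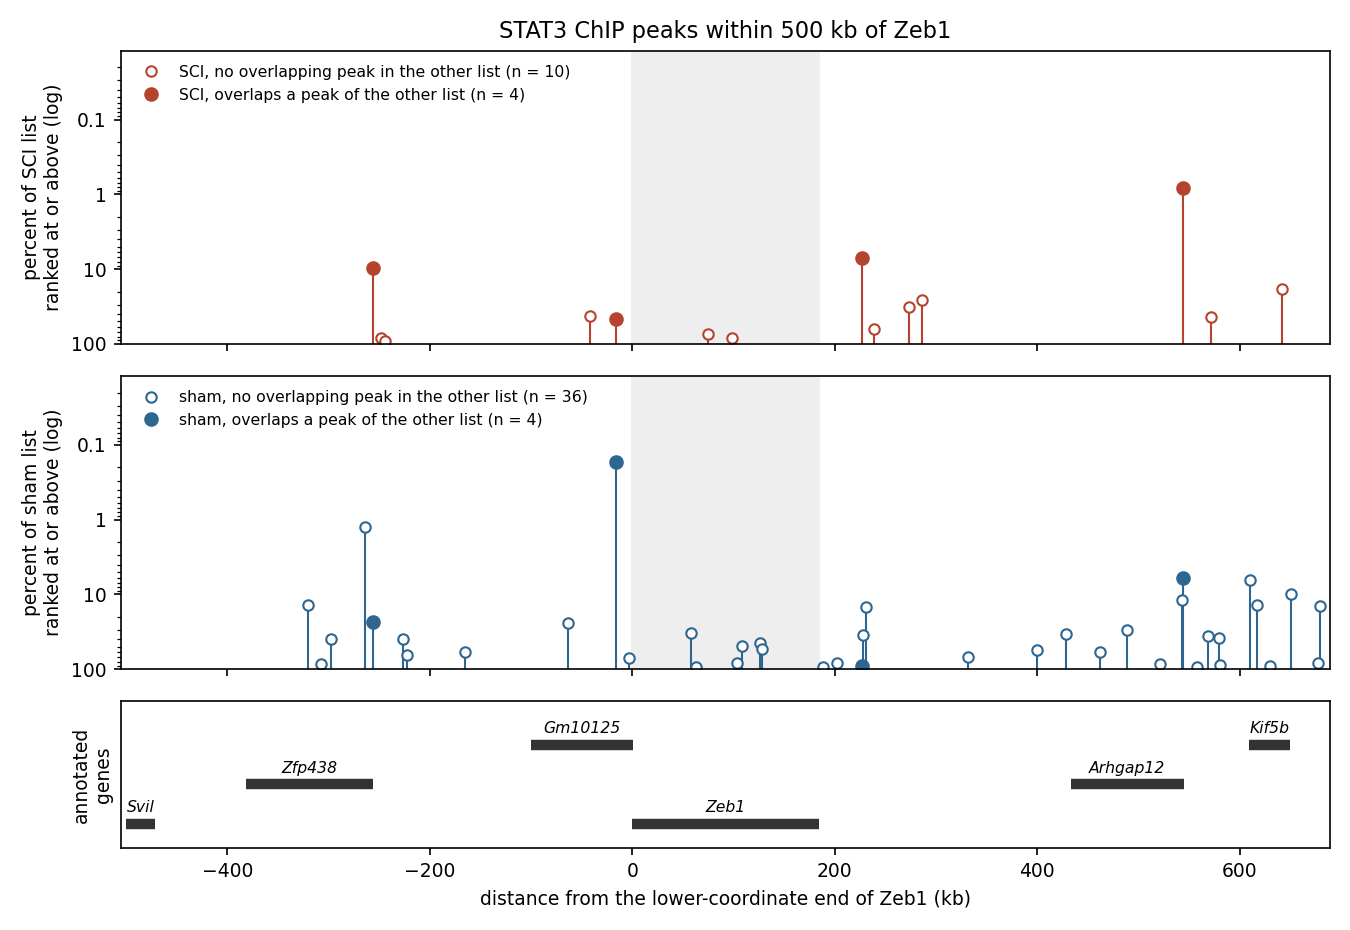
Every peak within 500 kb of Zeb1 by its distance in kb from the lower-coordinate end of the gene (x axis) and the percent of its own list that ranks at or above it (y axis, log scale, highest peaks at the top), with SCI above sham and annotated genes below. Filled symbols are the 4 peaks of each list that overlap a peak of the other, open symbols the other 10 SCI and 36 sham peaks, and the grey band is Zeb1. Peaks of equal score are drawn at the best rank of their tie.

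Zeb1 (gene ID 21417, chr18:5591327-5775468, 184 kb), the paralog of Zeb2, had no shared position inside the gene. It held 2 SCI and 6 sham peaks, where the medians of genes of 100 to 200 kb were 2 and 5. The SCI peaks at chr18:5666234-5666397 and chr18:5689393-5689556 scored 5.90 in the top 74.9% and 5.32 in the top 84.0%. Both were low in their list, and their nearest sham peaks were 12.5 and 5.75 kb away. The highest of the 6 sham peaks, at chr18:5649066-5649255, scored 10.5 in the top 32.6%. The other 5 stood between the top 44.7% and the top 93.9%. Within 5 kb outside Zeb1 there was no SCI peak, and sham had 1 on each side, 3.38 kb away in the top 71.3% and 3.92 kb away in the top 93.9%.

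Beside Zeb1 the highest peaks of both lists belonged to shared positions. The highest SCI peak, at chr18:6135251-6135414, scored 29.2 with rank 296, the top 0.817%. The sham peak at chr18:6135252-6135441 scored 23.0 in the top 6.11%. This position lay 360 kb from Zeb1, inside Arhgap12 (gene ID 75415, chr18:6024448-6136098). Another shared position lay 16.1 kb from Zeb1 in the long noncoding RNA gene Gm10125. The SCI peak there, at chr18:5575124-5575287, scored 7.59 in the top 46.8%. The sham peak, at chr18:5575071-5575176, was the highest sham peak near Zeb1, with a score of 57.7 and rank 150, the top 0.169%. It was 106 bp wide and so narrower than usual as well.

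The other shared positions lay on either side of Zeb1. On the higher-coordinate side, 43.2 kb from Zeb1, the SCI peak at chr18:5818601-5818764 scored 16.4 in the top 7.04%, and the sham peak at chr18:5818671-5818860 scored 5.22 in the top 90.8%. On the lower-coordinate side, 256 kb away and with its centre just outside Zfp438, whose end it overlaps, the SCI peak at chr18:5334806-5334969 scored 14.6 in the top 9.71%. The sham peak at chr18:5334884-5335073 scored 12.6 in the top 23.5%. In all, 4 of 14 SCI peaks (28.6%, 8.39 to 58.1%) and 4 of 40 sham peaks (10%, 2.79 to 23.7%) were shared, beside 21.6% and 8.84% of the whole lists. The centres of these pairs were 14 to 91 bp apart, and only the pair in Arhgap12 covered at least 50% of both peaks.

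The unshared peaks beside Zeb1 lay at its neighbours and in the spaces between them. Of the next highest SCI peaks, chr18:6233666-6233829 lay inside Kif5b, which encodes a heavy chain of the motor protein kinesin, with a score of 11.6 in the top 18.4%. The peak at chr18:5877903-5878066 lay in no gene, 103 kb from Zeb1, and scored 9.97 in the top 25.7%. Among the next highest sham peaks, chr18:5327616-5327805 lay inside Zfp438, a zinc-finger gene, with a score of 37.0 in the top 1.26%. The sham peak at chr18:6201985-6202174 inside Kif5b scored 22.5 in the top 6.53%. A further sham peak, at chr18:6241758-6241947 in the long noncoding RNA gene Gm41664, which overlaps Kif5b, scored 19.2 in the top 9.78%. Zfp438 held no SCI peak and 4 sham peaks, Arhgap12 held 1 SCI and 5 sham peaks, and Kif5b held 1 SCI and 3 sham peaks. The part of Svil inside the window held no peak. By side, 5 SCI and 11 sham peaks lay at lower coordinates and 7 SCI and 23 sham peaks at higher ones.

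Genes whose products work with ZEB proteins or oppose them were looked at in the same way, with the window of 5 kb. Of 22 protein-coding genes on this list, 14 had an SCI peak and 17 a sham peak, against 43.9% and 66.7% of all protein-coding genes. The median length of the 22 genes was 36.8 kb and that of all protein-coding genes 17.2 kb, and the part of length in these counts was not tested. SCI and sham both had a peak at 12 of them, and 5 had a shared position (16.5% of all protein-coding genes had one). The share of all protein-coding genes with a peak in both lists was not computed, so the count of 12 has no background. None of the 6 microRNA genes of the list had a peak in either condition, where 15.6% of all microRNA genes had an SCI peak and 31.3% a sham peak. Mir200a, Mir200b and Mir429 lie close together on chromosome 4, and Mir200c and Mir141 on chromosome 6. Their windows largely overlap, so the 6 genes are not separate cases.

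Among the corepressors, Ctbp2, which encodes a partner that ZEB proteins recruit, held 6 SCI and 9 sham peaks with 1 shared position. Its highest SCI peak, at chr7:133093702-133093865, scored 22.2 in the top 2.41% and overlapped no sham peak. A sham peak in the top 93.7% lay close by, at chr7:133094355-133094544. Of the subunits of the NuRD chromatin complex, Rbbp4 had its highest peak of both lists at the same place. There SCI scored 25.3 in the top 1.47% at chr4:129329094-129329257 and sham 35.5 in the top 1.48% at chr4:129329088-129329277. A further sham peak near Rbbp4 stood in the top 4.84%. Chd4, the helicase of that complex, had a shared position in the top 28.0% of SCI and the top 4.96% of sham. Kat2b, an acetyltransferase gene, had 2 SCI and 13 sham peaks with a shared position in the top 63.6% of SCI and the top 52.8% of sham.

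Of the Smad genes, whose products carry TGF-beta and BMP signals and bind ZEB proteins, Smad2 had a shared position in the top 89.5% of SCI and the top 91.6% of sham. A sham peak 4901 bp outside Smad2, at chr18:76316555-76316744, scored 37.5 in the top 1.20%. Smad3 had 1 SCI peak in the top 75.4% and 4 sham peaks, the highest in the top 5.78%. Smarca4, the ATPase of a chromatin remodelling complex, had 1 SCI peak in the top 69.0% and 10 sham peaks, 2 of them in the top 3.50 and 9.23%. The following were named after their values were seen. Snai2 and Mta2 had a peak in SCI alone. Twist1, Ctbp1, Smad1, Smad4 and Mbd3 had one in sham alone, and Snai1, Twist2 and Hdac2 had none. Without the matching shares over all genes, these names show no preference of a gene for a condition. The nearest SCI peak lay 5.09 kb from Twist1, 7.15 kb from Smad4 and 7.48 kb from Ctbp1, so with a window of 10 kb these 3 genes had a peak in both lists. With that window Hdac2 had one in both as well and Snai1 one in sham. The share of all genes with a peak within 10 kb was not computed, so these cases have no background.

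The microRNAs of the miR-200 family bind the transcripts of Zeb1 and Zeb2 and lower them, and ZEB proteins repress their genes in return. The nearest SCI peak was 7.38 kb from Mir141, 7.79 kb from Mir200c, 10.5 kb from Mir429, 11.5 kb from Mir200a and 12.3 kb from Mir200b. The nearest sham peak was 8.70 kb from Mir141, 9.11 kb from Mir200c, 12.5 kb from Mir429, 13.5 kb from Mir200a and 14.2 kb from Mir200b. Mir205, another microRNA that acts on both genes, had its nearest SCI peak at 33.3 kb and its nearest sham peak at 36.8 kb.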

How the data were processed

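Per the submitters' processing notes, reads were aligned with Bowtie2 to mm10. The peak caller, as well as its control and cutoff, was not given in the sources used here. From each STAT3 library the authors deposited 1 peak list, with a score per peak and a −log10 value in the place of a q-value. The deposited lists hold no read counts. They were matched to samples by title, SCI_STAT3 and Sham_STAT3.

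All peaks on the autosomes and sex chromosomes were ranked by score within their list, ties at the best rank of the tie. Sharing meant an overlap of 1 bp or more with any peak of the opposite condition. Gene spans, promoter sequences and start sites came from RefSeq GRCm38.p6. Zeb2 was found in the promoter table, and 18 of the 28 partner and regulator genes were. Exact Poisson and Clopper-Pearson intervals (95%) cover counting error only. Named were the peaks within 5 kb of a gene of interest, the shared pairs, the 5 highest peaks of each list at each locus, protein-coding neighbours, and partner genes with a shared peak or with an unshared peak in the top 10%. Members, gene lists and windows were chosen with earlier results of these data known, and the promoter motifs, gene length range, peak-free stretches and centre distances after values were seen. The code for sharing was run on simulated peaks laid over sham peaks or beyond all of them. That setting has no overlap by chance, so it checks the code alone. Window counts of the sham list were compared with a direct count at randomly drawn genes. The tools were scipy 1.17.1, pandas 2.3.3 and numpy 2.4.6 under Python 3.11.15, with matplotlib 3.10.9 for plots.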

Additional observations from a re-analysis of the deposited data

How the results depend on the processing

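The depth of the libraries is unknown, and with 1 library per condition leaving out a replicate was not possible. No paired analysis was possible because each condition has 1 STAT3 library and no test was run. Peak counts followed the list and the window chosen. Keeping only the upper part of each list from its median score on, the Zeb2 window held 6 SCI and 17 sham peaks and the Zeb1 window 9 and 22. When sham was cut to as many of its highest peaks as SCI has, it had 13 peaks near Zeb2 and 20 near Zeb1. A window of 250 kb held 6 SCI and 20 sham peaks near Zeb2 and 20 sham peaks near Zeb1, and one of 1 Mb held 25 and 67 near Zeb2 and 70 sham peaks near Zeb1. Merging peaks within 1 kb changed no count by more than 1 peak. The share of SCI peaks near Zeb1 that were shared was 7.14% (1 of 14) when at least 50% of both peaks had to overlap, while near Zeb2 it was 26.7% under that rule, as with 1 bp. Over the whole SCI list the share was 14.7% under that rule, 13.9% with sham cut in this way and 23.9% with centres within 500 bp, beside 21.6% with 1 bp. Under the other settings these shares lay between 16.7 and 50% near Zeb2 and between 20 and 33.3% near Zeb1. Counts of protein-coding partner genes moved by less than 1.5 times under every setting run. With a window of 10 kb, 2 microRNA genes had an SCI peak and 2 a sham peak, Mir141 and Mir200c. The share of all microRNA genes with a peak in that wider window was not computed.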

Other observations

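Both lists had a long stretch without a peak over Zeb2. In SCI it ran for 223 kb up to the peak at 45035127 of chromosome 2 and took in 38.5% of the gene. In sham it ran for 154 kb between the peaks that end at 44961005 and start at 45115187, and it covered 98.3% of the gene. Among 1437 protein-coding genes of 100 to 200 kb, the median of the longest stretch that touched a gene was 154 kb in SCI and 70.6 kb in sham. A stretch at least as long as that at Zeb2 touched 23.9% of these genes in SCI and 6.05% in sham. Over Zeb1 the longest stretch was 129 kb in SCI, with 62.8% of these genes at or above it, and 61.0 kb in sham, with 62.0% at or above it. The comparison was chosen after the stretches were seen.

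Of the 28 partner and regulator genes, 18 had a promoter window. No SCI peak overlapped any of these windows, and sham peaks overlapped those of Chd4 and Kat2b. The share of all promoter windows that overlap a peak was not computed, so these counts have no background and show no contrast between conditions. The sham peak at Kat2b, chr17:53566776-53566965, scored 10.3 in the top 33.9%, and the sham peak at Chd4, chr6:125095749-125095938, scored 5.14 in the top 91.7%.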
